A study of Rattus norvegicus with 9 samples.

Results

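The genes described here build the glutamatergic synapse, the excitatory contact through which most neurons of the brain signal, and the machinery that releases transmitter vesicles from neurons. The list holds 42 rat genes in 3 classes. It has 15 glutamate receptor genes, 10 genes of the postsynaptic scaffold, adhesion and kinase signalling, and 17 genes of presynaptic vesicle release. Every probe whose transcript accession mapped to a listed gene was taken. Of the 42 listed genes, 41 had at least 1 probe, among 15168 named genes with a probe on the array, and all 41 were tested. Syp is not analysed here. The 41 genes were covered by 56 probes, and 14 of them had more than 1 probe.

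Gene expression was measured on 9 one-colour Agilent arrays of total RNA from the brain of Sprague Dawley rats, all male, with 3 groups and 3 arrays in each. The first group was sham-operated, and the labels name no injection for it. The second had middle cerebral artery occlusion (MCAO) followed by reperfusion and received intraperitoneal saline, the vehicle. The third had the same operation and received salidroside, a glycoside of Rhodiola plants, at 50 mg per kg. Both MCAO groups were injected once daily for 6 days, starting 1 h after reperfusion, and the tissue was dissected from the ischemic brain. The labels do not give the age of the rats or the side and exact region taken. They give n = 3 per group without stating that each array holds RNA of a separate rat, so p-values measure the spread between these arrays, which may be partly technical.

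At an excitatory synapse, glutamate is packed into vesicles, and an action potential makes SNARE proteins fuse the vesicles with the membrane of the terminal. Glutamate then opens AMPA, kainate and NMDA receptor channels and activates metabotropic receptors on the other side of the cleft. Scaffold proteins beneath the postsynaptic membrane hold the receptors beside calcium-dependent kinases. MCAO closes the artery that feeds the lateral cortex and the striatum, and is widely used to model stroke in rodents.

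Levels are given as the log2 of the processed signal minus the log2 of the array's own 75th percentile, so a value of 0 is that percentile. Probes differ in brightness for reasons other than RNA amount, and levels were therefore compared between arrays and not between genes. For groups, means are given with their standard deviation (SD) over 3 arrays, and changes are log2 differences with the standard error (SE) of a limma fit of all 9 arrays. Calls were made where the p adjusted by Benjamini-Hochberg over 22783 features was under 0.05. Between 82.0% and 88.5% of the probes on 8 arrays exceeded background clearly, against 65.6% on sham replicate 3, which was scanned on a second day. Gria1 was not well above background on sham replicate 3, and Shank2 was not on sham replicate 3 and vehicle replicate 2. No member was saturated.

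Arrays that share a scan identifier in the file headers were taken to lie on 1 slide, which is an assumption. On that reading, sham and MCAO arrays shared no slide, so slide and operation cannot be told apart in comparisons with sham. Vehicle replicates 1 and 3 and salidroside replicates 2 and 3 lay on slide 1, and vehicle replicate 2 and salidroside replicate 1 on slide 2. Some arrays stood apart in markers of other brain regions. Vehicle replicate 2 carried cerebellar neuron markers at a median of 4.04 above the sham mean, sham replicate 1 carried striatal markers at 1.69, and vehicle replicate 3 and salidroside replicate 3 carried choroid plexus markers at 2.5 and 1.58. Ttr, which encodes transthyretin, a protein abundant in choroid plexus, read 6.45 and 6.42 on those 2 arrays and 4.3 on vehicle replicate 1, against -3.46 to -1.3 on the other 6 arrays. The medians and counts of the members, and the single genes that carry them, are given with these 5 arrays and without each of them.

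With MCAO and vehicle, the genes as a set sat lower than in sham, but only 1 of them passed the test. Of the 41 genes, 35 had a negative change, which is 85.4% of them, against 41.3% of all features. Their median change was -0.32, against 0.099 over all features. Stx1a, a plasma membrane SNARE of the release machinery, fell by 1.15 on the log2 scale. It made up 2.44% of the members, near the 1.57% of all features that were called lower, while 1.03% of all features were called higher and no member was. At an unadjusted p under 0.05, 10 members lay lower and 0 higher, which is 24.4% of the members against 7.88% of all features for the lower direction. In bulk tissue, fewer neurons and less RNA per neuron cannot be told apart.

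Those shares over all features moved with the scaling of the arrays. The calls over all features were 358 lower and 234 higher, and taking the 75th percentile over probes in place of spots gave 404 lower and 492 higher. With normexp background correction they were 13 lower and 0 higher. Of the members, 36 to 38 were negative under quantile normalization, median scaling and the authors' deposited table, which held 40 of them, and 37 under normexp. These settings also lowered the median of all features, from 0.099 to between -0.14 and -0.021, so the counts alone do not show stability. Relative to all features, the members' median was -0.39 under quantile normalization, -0.42 under median scaling, -0.35 with the deposited table and -0.26 under normexp.

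**Figure D1:**
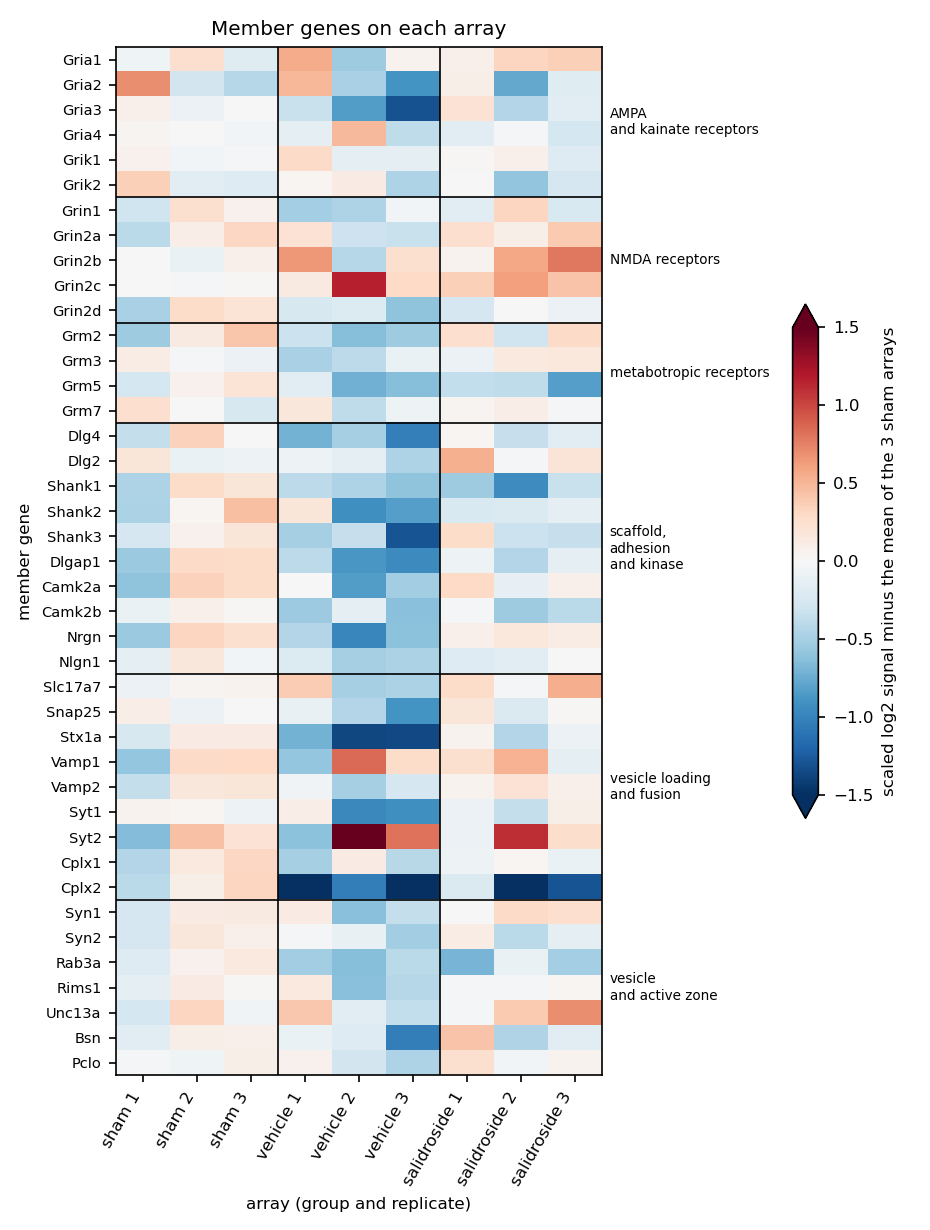
Scaled log2 signal of each of the 41 genes (rows, in 6 role groups) on each of the 9 arrays (columns), minus the mean of the 3 sham arrays. Blue is below and red above that mean, and differences past 1.5 either way have the end colour. Vehicle replicates 2 and 3 are blue over most rows, while vehicle replicate 1 is mixed, with a median of -0.12 over the genes against -0.46 and -0.48.

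Promoter sequence was available for 32 of the 42 genes, as the 250 bases before the annotated start in RefSeq on assembly GRCr8, which was not the build of the array. The sequences printed here, 5′ to 3′ on the strand of the gene, belong to the 1 called gene, the gene with the lowest vehicle change, the scaffold-class gene with the highest salidroside change against vehicle, and a release gene that read the other way. Capitals mark GGGCGG, the GC box bound by Sp factors, searched on both strands.
Stx1a promoter, chr12:27306472-27306721, minus strand: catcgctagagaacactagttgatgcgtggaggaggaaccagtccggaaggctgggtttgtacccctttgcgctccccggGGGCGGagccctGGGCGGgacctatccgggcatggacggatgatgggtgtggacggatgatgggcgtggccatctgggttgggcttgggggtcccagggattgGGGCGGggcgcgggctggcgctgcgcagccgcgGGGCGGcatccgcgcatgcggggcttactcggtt
Cplx2 promoter, chr17:10236754-10237003, minus strand: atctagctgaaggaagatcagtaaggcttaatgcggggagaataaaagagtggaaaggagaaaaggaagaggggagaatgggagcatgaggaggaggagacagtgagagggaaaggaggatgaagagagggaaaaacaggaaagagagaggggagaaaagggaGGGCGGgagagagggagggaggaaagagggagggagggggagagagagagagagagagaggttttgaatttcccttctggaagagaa
Nrgn promoter, chr8:45452418-45452667, minus strand: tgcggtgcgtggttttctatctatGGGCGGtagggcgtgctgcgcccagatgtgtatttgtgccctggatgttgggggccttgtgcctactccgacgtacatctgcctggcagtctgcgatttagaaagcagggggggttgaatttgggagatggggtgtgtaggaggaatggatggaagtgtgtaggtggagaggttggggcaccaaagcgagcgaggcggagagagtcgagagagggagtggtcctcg
Syt2 promoter, chr13:48736872-48737121, plus strand: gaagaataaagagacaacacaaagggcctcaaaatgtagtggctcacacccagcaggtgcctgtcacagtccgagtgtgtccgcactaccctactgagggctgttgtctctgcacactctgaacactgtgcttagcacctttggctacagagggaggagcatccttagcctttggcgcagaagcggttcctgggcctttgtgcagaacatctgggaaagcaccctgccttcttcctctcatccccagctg

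The Stx1a window held 4 GC boxes, the Cplx2 and Nrgn windows 1 each and the Syt2 window 0. A GC box was present in 17 of the 32 windows, or 53.1%, against 32.4% of 27457 rat promoters of the same length. The median GC content was 60.4% against 52%, so the 2 shares differ together with base composition. TGACGTCA, the full cyclic AMP response element, was in 2 windows (Syn1 and Vamp1), 6.25% against 1.7%. GCGTGGGCG, the EGR site, was in 1 window (Vamp2), 3.12% against 0.514%. These are matches of letters, and no binding was measured here.

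Among the AMPA receptor subunits, which carry fast excitatory current, Gria3 stood apart between sham and vehicle. Gria3 measured 4.92, 4.75 and 4.85 in sham, 4.51, 4.0 and 3.54 with vehicle, and 5.06, 4.4 and 4.67 with salidroside. Each vehicle array lay below every sham array, and salidroside replicate 2 overlapped the highest vehicle array. The vehicle change was -0.82 (SE 0.26, adjusted p = 0.114) and the salidroside change against vehicle was 0.69 (adjusted p = 0.790), neither past the test. Its second probe gave a vehicle change of -1.07.

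Gria2, the subunit that sets the calcium permeability of AMPA receptors, depended on the probe. Its brighter probe measured 0.39, -0.59 and -0.74 in sham, 0.19, -0.80 and -1.21 with vehicle, and -0.22, -1.08 and -0.49 with salidroside. These groups overlapped throughout, with a vehicle change of -0.29 (SE 0.43). Its dimmer probe read -0.72 (SE 0.18, adjusted p = 0.0728 in the fit over probes) for the same comparison, and its arrays did not overlap: sham lay from -1.80 to -1.62 and vehicle from -2.78 to -2.15. Salidroside lay between -2.02 and -1.85 on that probe.

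The other AMPA and kainate subunits showed little. Gria4 measured 1.97, 1.93 and 1.89 in sham and 1.79, 2.41 and 1.55 with vehicle, so the vehicle arrays fell on both sides of sham. Gria1 and the kainate receptor subunit Grik2 had vehicle changes of 0.023 and -0.10, and the remaining kainate gene, Grik1, had 0.0025. The median over the 6 AMPA and kainate genes was -0.055 with vehicle relative to sham and -0.013 with salidroside relative to vehicle.

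NMDA receptors, which pass calcium when glutamate and depolarisation coincide, showed no common direction. The obligatory subunit Grin1 measured -4.75, -4.21 and -4.39 in sham, -4.96, -4.92 and -4.50 with vehicle and -4.61, -4.13 and -4.68 with salidroside. Its groups overlapped, with a vehicle change of -0.34 (SE 0.22, adjusted p = 0.393). Grin2a, Grin2b and Grin2d, the regulatory subunits of forebrain and brainstem receptors, had vehicle changes of -0.14, 0.15 and -0.35.

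Grin2c, the regulatory subunit best known from cerebellar granule cells, was the 1 member above sham without overlap. It measured 0.16, 0.13 and 0.18 in sham, 0.29, 1.32 and 0.45 with vehicle, and 0.51, 0.77 and 0.59 with salidroside. Both MCAO groups lay above sham on every array, and vehicle replicate 2 was far above the rest. The vehicle change of 0.53 (SE 0.25, adjusted p = 0.245) was 0.22 without that array, which also read highest in the cerebellar markers. Salidroside against sham gave 0.46 (adjusted p = 0.464). Over all features, 18.8% lay higher without overlap with vehicle and 13.3% with salidroside, both relative to sham, so 1 gene in 41 is below the background share.

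All 4 metabotropic receptor genes had a negative vehicle change, with a median of -0.41. Grm3, a Gi-coupled receptor of neurons and astrocytes, measured -2.37, -2.50 and -2.57 in sham, -2.97, -2.87 and -2.58 with vehicle and -2.57, -2.34 and -2.32 with salidroside. The vehicle arrays lay below all sham and all salidroside arrays, with vehicle replicate 3 close beneath the lowest of them, and neither change passed the test (-0.32 and 0.40, adjusted p = 0.256 and 0.791). Grm2, its presynaptic relative, measured 1.60, 2.27 and 2.55 in sham, 1.82, 1.5 and 1.61 with vehicle and 2.39, 1.84 and 2.43 with salidroside. Salidroside lay above vehicle on every array with salidroside replicate 2 close to vehicle replicate 1, and sham replicate 1 lay among the vehicle arrays.

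Grm5, a Gq-coupled postsynaptic receptor, was low in both MCAO groups. It measured -4.38, -4.05 and -3.91 in sham, -4.28, -4.84 and -4.76 with vehicle and -4.48, -4.50 and -4.94 with salidroside. Every salidroside array lay below every sham array, and the salidroside change against vehicle was -0.010 (SE 0.22). The changes against sham were -0.51 with vehicle and -0.52 with salidroside (adjusted p = 0.199 and 0.309), and under normexp background correction the latter was 0.33. Over the 15 receptors, the median vehicle change was -0.14 and 11 were negative.

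The postsynaptic scaffold and kinase genes were the class with the lowest vehicle values. All 10 had a negative change against sham, with a median of -0.50 and a range from -0.75 to -0.22. None passed the test over all features, 5 had an unadjusted p under 0.05 (7.88% of all features were lower at that p), and 4 lay below sham on every array (9.99% of all features). Against vehicle, 9 of the 10 were higher with salidroside, with a median of 0.49, and again none passed. Shank2 is among the 9, but it was tested only through the salidroside group, so its direction there is no separate evidence.

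Dlg4 encodes PSD-95, the scaffold that anchors NMDA and AMPA receptors. It measured -4.19, -3.49 and -3.83 in sham, -4.55, -4.34 and -4.86 with vehicle, and -3.81, -4.18 and -3.99 with salidroside. Vehicle lay below both other groups on every array. The changes were -0.75 (SE 0.22, adjusted p = 0.0993) with vehicle relative to sham and 0.59 (adjusted p = 0.781) with salidroside relative to vehicle. Dlgap1, which links PSD-95 to the SHANK proteins, measured -2.10, -1.25 and -1.27 in sham, -1.93, -2.41 and -2.49 with vehicle and -1.62, -1.98 and -1.68 with salidroside. Here sham replicate 1 and vehicle replicate 1 crossed, and the changes were -0.74 and 0.52.

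Nrgn encodes neurogranin, a calmodulin-binding protein of the dendrites of forebrain principal neurons. It measured 4.34, 5.22 and 5.14 in sham, 4.46, 3.92 and 4.28 with vehicle and 4.98, 5.06 and 5.01 with salidroside. The salidroside arrays were close to one another (SD 0.039) and all above the vehicle arrays, and sham replicate 1 alone of the sham arrays read as low as vehicle. The salidroside change against vehicle was 0.79, or 1.73-fold (SE 0.25, adjusted p = 0.680), and the vehicle change against sham was -0.68 (adjusted p = 0.152). Without sham replicate 1, the array with the striatal markers, Nrgn was called lower with vehicle.

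Of the other scaffold genes, 5 are named after their values were seen. Shank3, Camk2b and Nlgn1 lay below sham on every vehicle array, with changes of -0.72, -0.44 and -0.40, and Dlg2, Shank3 and Nlgn1 lay above vehicle on every salidroside array, with changes of 0.46, 0.58 and 0.28. The second probes of Shank3 and Camk2b read -0.27 and -0.37 for vehicle against sham, with overlapping arrays. For salidroside against vehicle those probes read 0.58 and -0.017. SHANK proteins form the deeper layer of the scaffold, Camk2b is a subunit of the calcium/calmodulin kinase, and neuroligin 1 binds presynaptic neurexins. Shank1 had 3 probes that ranged from -1.0 to -0.25 with vehicle relative to sham. With salidroside relative to vehicle they ranged from -0.12 on the brightest probe to 1.03 on another, whose vehicle arrays (-5.02, -5.05 and -5.35) lay below all others.

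**Figure D2:**
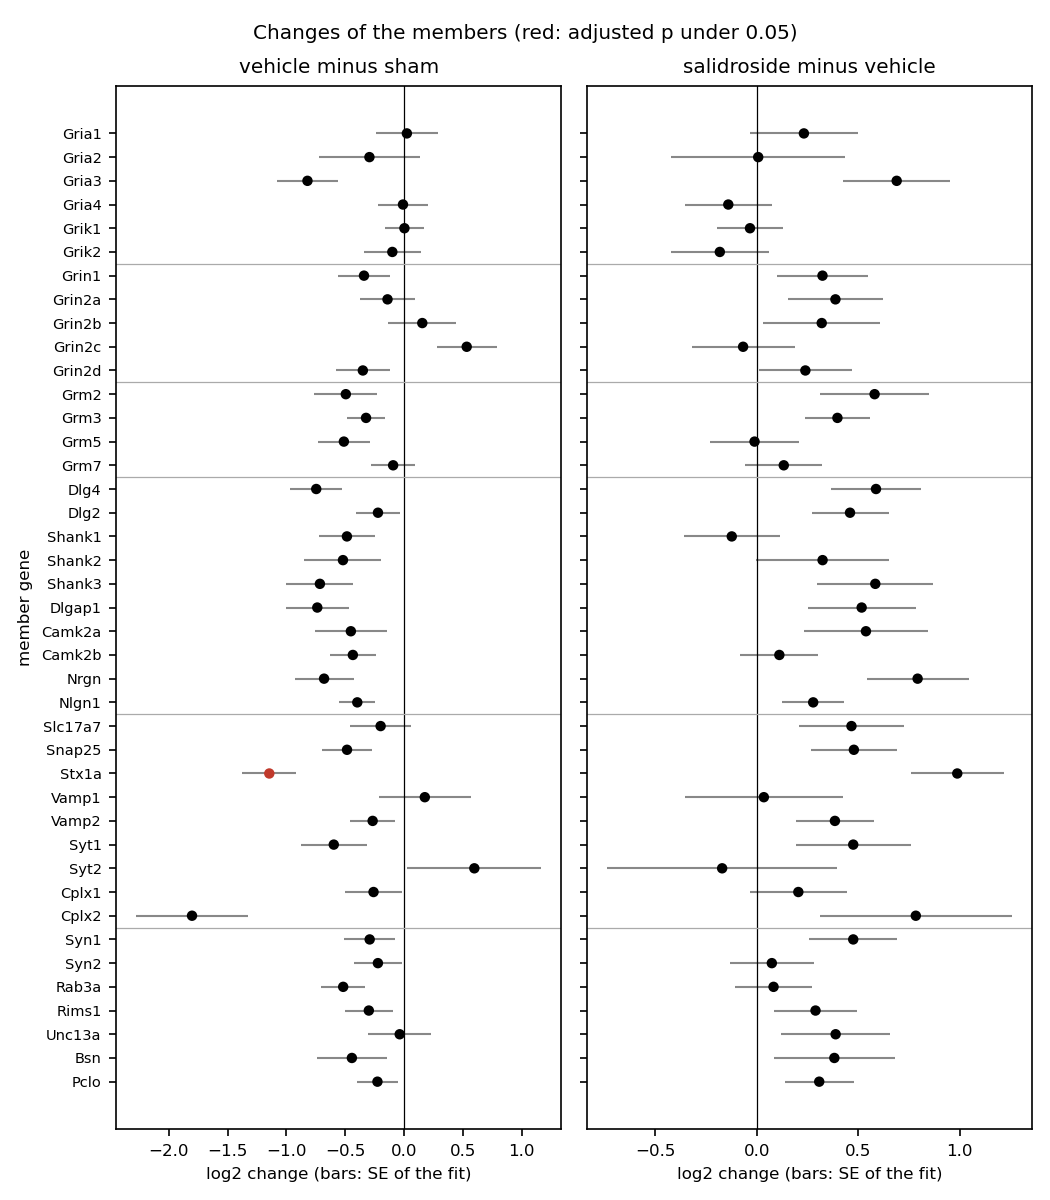
Log2 change of each of the 41 genes for vehicle minus sham (left) and salidroside minus vehicle (right), with bars of 1 SE of the fit. Stx1a on the left, in red, is the 1 gene past the test, and most points lie left of 0 in the left panel (35 of 41) and right of 0 in the right panel (34 of 41), both of which use the same vehicle arrays.

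Stx1a, whose promoter window is the one with 4 GC boxes, measured 4.14, 4.50 and 4.51 in sham, 3.67, 3.02 and 3.03 with vehicle, and 4.44, 3.94 and 4.30 with salidroside. The vehicle arrays lay below every array of both other groups. Stx1a was 2.21-fold lower with vehicle than in sham (log2 change -1.15, SE 0.23, adjusted p = 0.0435) and 1.98-fold higher with salidroside than with vehicle (log2 change 0.99, SE 0.23, adjusted p = 0.449), the first past the test and the second not. The vehicle call was lost when any of 6 arrays was left out, namely sham replicates 2 and 3, vehicle replicates 2 and 3 or salidroside replicates 2 and 3, which gave adjusted p from 0.0617 to 0.177. The change itself lay between -1.36 and -1.04 when any array was left out. Over all alternatives its adjusted p ran from 0.011 to 0.332.

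Stx1a's partner SNARE on the plasma membrane, Snap25, measured 4.21, 4.03 and 4.11 in sham, 4.0, 3.67 and 3.22 with vehicle and 4.30, 3.90 and 4.13 with salidroside. It lay lower on all vehicle arrays than in sham, with a change of -0.49 that did not pass the test (adjusted p = 0.210). Vamp2, the SNARE on forebrain vesicles, measured 1.92, 2.44 and 2.45 in sham, 2.22, 1.78 and 2.02 with vehicle and 2.33, 2.49 and 2.35 with salidroside. All salidroside arrays lay above all vehicle arrays for Vamp2, while sham replicate 1 read among the vehicle arrays.

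Complexins bind the assembled SNARE complex and hold it ready for calcium. Cplx2 had the lowest vehicle change of all members, -1.80 or 3.49-fold (SE 0.47), without passing the test (adjusted p = 0.0779). It measured 2.09, 2.58 and 2.81 in sham, 0.81, 1.46 and -0.20 with vehicle, and 2.28, 0.95 and 1.20 with salidroside. Every vehicle array lay below every sham array, and salidroside replicates 2 and 3 lay within the vehicle range while replicate 1 lay within the sham range. The change of salidroside against sham was -1.02 (adjusted p = 0.374). Cplx1, its relative, changed by -0.26 with vehicle (adjusted p = 0.548).

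**Figure D3:**
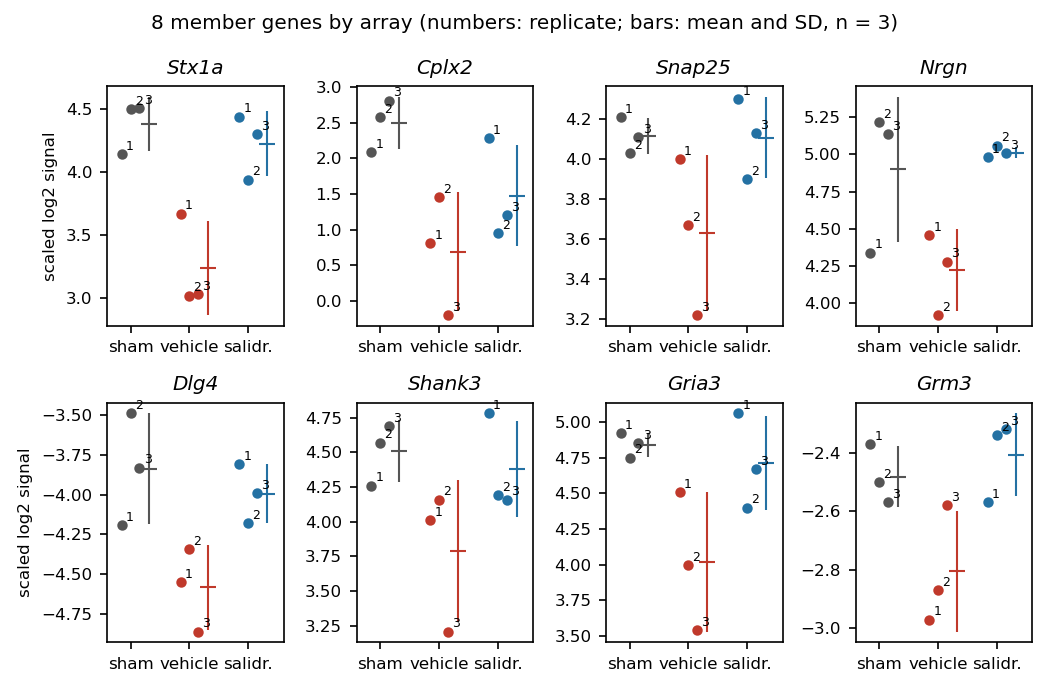
Scaled log2 signal (vertical axes) of 8 genes on each array, with the replicate number beside each point and bars of the mean and SD of 3 arrays. For Stx1a, Cplx2, Snap25, Dlg4, Shank3, Gria3 and Grm3 the 3 vehicle arrays lie below the 3 sham arrays, and for Nrgn sham replicate 1 at 4.34 lies below vehicle replicate 1 at 4.46.

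Synaptotagmins are the calcium sensors of release, and the forebrain and hindbrain forms moved unequally on some arrays. Syt1, the main forebrain form, measured -1.62, -1.64 and -1.74 in sham, -1.57, -2.64 and -2.59 with vehicle and -1.75, -2.03 and -1.58 with salidroside. Vehicle replicates 2 and 3 were low, and vehicle replicate 1 was the highest of all arrays. Syt2, the main form of the hindbrain and spinal cord, measured -4.30, -3.21 and -3.43 in sham, -4.26, -2.06 and -2.84 with vehicle and -3.74, -2.54 and -3.39 with salidroside. Syt2 was highest on vehicle replicate 2, followed by salidroside replicate 2 and vehicle replicate 3. The Syt2 groups overlapped, and its vehicle change of 0.60 (SE 0.57, adjusted p = 0.564) was 0.10 without vehicle replicate 2.

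The remaining release genes organise vesicles and active zones. Rab3a, a vesicle GTPase, measured 1.19, 1.45 and 1.53 in sham, 0.87, 0.75 and 0.99 with vehicle and 0.69, 1.29 and 0.88 with salidroside. It was lower than sham on all vehicle arrays (change -0.52, adjusted p = 0.147), and the change of salidroside against sham was -0.43, with salidroside replicate 2 inside the sham range. Syn1, which tethers vesicles, and the active zone organisers Rims1, Bsn and Pclo had vehicle changes of -0.29, -0.30, -0.44 and -0.23, all with overlapping arrays. The second Pclo probe read 0.32. Over the 16 release genes, 14 had a negative vehicle change, with a median of -0.28.

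Counted by array, 10 of the 41 members lay below sham on every vehicle array, which is 24.4% of them against 9.99% of all features. The 10 were Gria3, Grm3, Dlg4, Shank3, Camk2b, Nlgn1, Snap25, Stx1a, Cplx2 and Rab3a, each on its brightest probe. On the second probes of Shank3, Camk2b and Snap25 the sham and vehicle arrays overlapped. The count rested in part on single arrays. It was 23 without sham replicate 1 (21.3% of all features) and 24 without vehicle replicate 1 (15.9%). The count was 11 without sham replicate 2 (10.5%), vehicle replicate 2 (14.3%) or vehicle replicate 3 (13.4%), and 10 without sham replicate 3 (11.2%).

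The class medians for vehicle against sham kept their sign when each of the 5 arrays with raised region markers was left out in turn. Every vehicle array is among the 5. Each run therefore kept vehicle arrays with such markers and cannot show values free of them. The size of the class medians moved, from -0.76 to -0.42 for scaffold and kinase genes and from -0.49 to -0.21 for release genes. For receptors the median was -0.012 without sham replicate 1 and -0.046 without vehicle replicate 3, against -0.14. Among single genes, Cplx2 ran from -2.19 to -1.36, Dlg4 from -0.92 to -0.61, Gria3 from -1.07 to -0.58, Grm3 from -0.44 to -0.24, Rab3a from -0.62 to -0.46 and Snap25 from -0.67 to -0.28. The members' median change was -0.28 without vehicle replicate 2, -0.26 without vehicle replicate 3, the array with the highest Ttr, -0.49 without vehicle replicate 1, which also had raised Ttr, and -0.44 without sham replicate 1.

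Salidroside against vehicle is the comparison named in the title of the series. Of the 41 members, 34 were higher with salidroside, or 82.9% of them, against 57.6% of all features, with a median of 0.32 against 0.049 over all features. Shank2, which was tested only through the salidroside group, is among the 34. No member passed the limma test, and over all features 0.00439% were called higher and 0.00878% lower. At an unadjusted p under 0.05, 6 members were higher and 0 lower, which is 14.6% for the higher direction against 3.06% of all features. No alternative setting called a member. The medians were 0.23 for receptors, 0.49 for scaffold and kinase genes and 0.38 for release genes. This comparison and the comparison of vehicle with sham share the 3 vehicle arrays, so their opposite signs are not independent.

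Without overlap, 9 members lay above vehicle on every salidroside array, which is 22% of the members against 5.46% of all features, while 0 lay below it against 6.47%. The 9 were Grm2, Grm3, Dlg4, Dlg2, Shank3, Nrgn, Nlgn1, Stx1a and Vamp2. The count was 23 without vehicle replicate 1 (11.8% of all features), 14 without salidroside replicate 2 (7.74%) and 13 without vehicle replicate 2 (10.4%). Without salidroside replicate 1 it was 11, while 23.2% of all features then lay higher. It was 10 without vehicle replicate 3 (9.01%) and 9 without salidroside replicate 3 (8.03%). Without vehicle replicate 1 the members' median was 0.50, and without salidroside replicate 3 it was 0.30. Each of the 5 arrays with raised region markers was left out in turn, and each run still held vehicle arrays with such markers. The class medians then ran from 0.11 to 0.29 for receptors, 0.32 to 0.64 for scaffold and kinase genes and 0.23 to 0.54 for release genes. Nrgn ran from 0.64 to 0.91, and Cplx2 was 0.34 without vehicle replicate 3, against 0.78.

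The slides that held both MCAO groups, as assumed from the scan identifier, allowed a look within each. On slide 1 the median difference of salidroside from vehicle was 0.30 over the 41 genes, against 0.077 over all features. On slide 2, with 1 array of each group, it was 0.53 against -0.029. The vehicle array there was replicate 2, which read highest in the cerebellar markers, so all slide 2 values rest on that array. On both slides 28 of the 41 genes were higher with salidroside, or 68.3%, against 31.6% of all features. Stx1a was higher by 0.77 on slide 1 and by 1.42 on slide 2, and Nrgn by 0.66 and 1.06. The scaffold class was the most even, with 9 of 10 genes higher on both slides, against 12 of 16 release genes and 7 of 15 receptors. Shank2 is among the 9 and the 28. It was tested only through the salidroside group and was not well above background on vehicle replicate 2, so its direction here is no separate evidence.

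Set against sham, the salidroside arrays lay close to sham for these genes and somewhat low relative to other features. The median change was -0.030, against 0.12 over all features. Of the members, 24 were lower and 17 higher, so 58.5% were negative against 35.3% of all features. No member was called by limma, 3 had an unadjusted p under 0.05, and 0.935% of all features were called lower and 0.237% higher. The 3 were Grm5, Rab3a and Shank1, all lower, which is 7.32% of the members against 3.88% of all features. For Shank1 this held on the brightest probe alone, at -0.61, while its other probes read 0.032 and -0.19. Grm5 was the 1 member below sham on every salidroside array, against 6.73% of all features. The number of negative members moved from 16 with normexp background correction to 31 with median scaling, settings that also shifted the median of all features, to 0.45 and -0.012. Relative to all features, the members' median was -0.15 and lay between -0.28 and -0.086 over all settings.

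Relatives with the same role were compared within each array, which removes the scaling of the array. For 5 pairs and 2 comparisons, the difference between the 2 genes was tested between groups by an exact two-sided permutation test, with a smallest possible p of 0.1. Cplx1 minus Cplx2 was 1.54 greater with vehicle than in sham, without overlap between the groups (exact permutation p = 0.1, adjusted p = 0.857 over 10 tests). The other differences for vehicle against sham were 1.19 for Syt2 minus Syt1, 0.44 for Vamp1 minus Vamp2, 0.38 for Grin2c minus Grin2b and 0.29 for Gria4 minus Gria2, all with overlapping arrays. Each gene was read on its brightest probe. The second probes of Gria4 and Gria2 read 0.26 and -0.72 for vehicle against sham, and the pair was not tested on them.

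Those 4 differences leaned on vehicle replicate 2. In each of these 4 pairs the relative named first, which was Syt2, Vamp1, Grin2c or Gria4, was highest on that array among all 9 arrays. Vamp1, the vesicle SNARE known from hindbrain and spinal cord, measured 4.44, 5.30 and 5.31 in sham, 4.43, 5.86 and 5.29 with vehicle and 5.25, 5.54 and 4.88 with salidroside. Without vehicle replicate 2, the differences were 0.51 for Syt2 minus Syt1, -0.00478 for Vamp1 minus Vamp2, -0.23 for Grin2c minus Grin2b and -0.056 for Gria4 minus Gria2. Cplx1 minus Cplx2 was 1.73 without it.

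**Figure D4:**
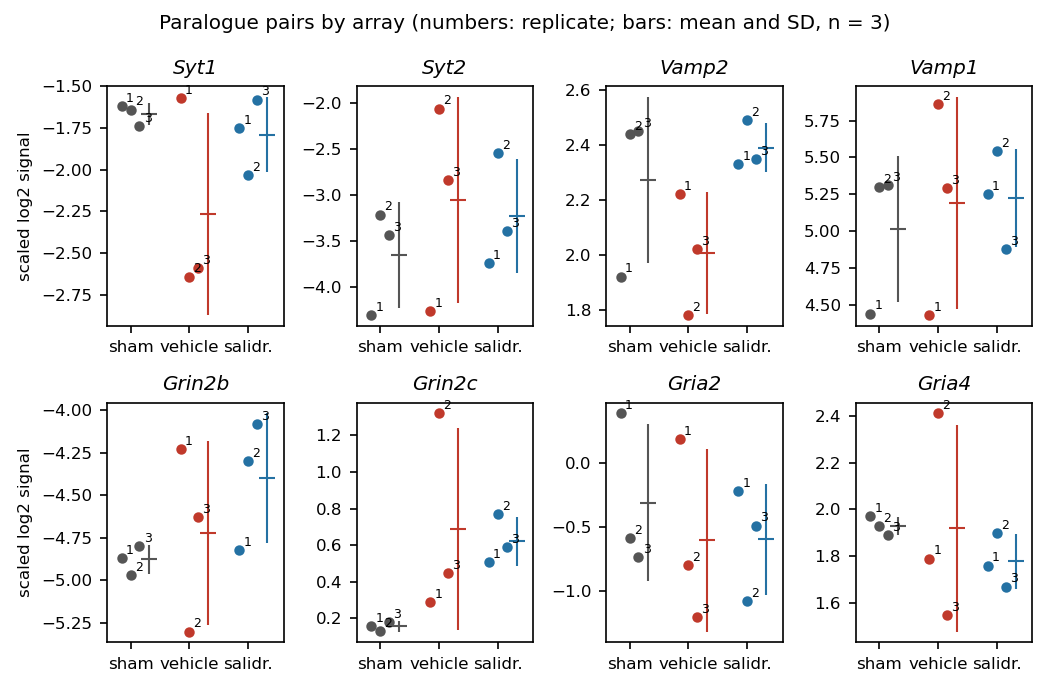
Scaled log2 signal (vertical axes) of 4 pairs of related genes on each array, with the replicate number beside each point and bars of the mean and SD of 3 arrays. Syt2, Vamp1, Grin2c and Gria4 have their highest point at vehicle replicate 2 (-2.06, 5.86, 1.32 and 2.41), while Syt1, Vamp2 and Grin2b are lowest there.

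Other genes of the same synapse, which are not members, gave smaller values of the same sign. Of 76 listed genes, 68 were measured, with a median vehicle change of -0.15 and 46 negative, and a median of 0.20 for salidroside against vehicle with 54 positive. None was called in either comparison. At an unadjusted p under 0.05, 7 were lower and 2 higher with vehicle than in sham, or 10.3% and 2.94%, against 7.88% and 16% of all features. With salidroside relative to vehicle, 8 were higher and 1 lower, or 11.8% and 1.47%, against 3.06% and 2.87%. Closest to the threshold was Cacng3, a TARP subunit that escorts AMPA receptors, at -0.89 with vehicle against sham (SE 0.19, adjusted p = 0.0531) and 0.96 with salidroside against vehicle (adjusted p = 0.340).

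The other genes taken by the naming rule for vehicle against sham were the scaffold gene Dlg1 at -0.63, the spine protein gene Ppp1r9b at -0.60, the active zone gene Rims2 at -0.62, the kainate receptor gene Grik4 at 0.41 and the vesicle protein gene Sv2c at 0.66. For salidroside against vehicle they were Dlgap3 at 0.96, Grm8 at 0.53, Syt5 at 0.59, Doc2a at 0.46 and the scaffold gene Homer3 at -0.90. None of these 10 values passed the test.

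Markers of cell types and regions moved with the same groups, and their part in the values above was not tested. The summed level is the sum of linear signals as multiples of the array's 75th percentile. The 6 measured markers of 8 for cortical projection neurons, the main glutamatergic neurons of the cortex, all read lower with vehicle (median -0.79, Lamp5 called), with sums of 4.90 to 6.30 in sham, 2.45 to 5.39 with vehicle and 4.45 to 7.40 with salidroside. For salidroside against vehicle their median was 0.86, with 6 of 6 higher. The 11 pan-neuronal markers of 12 moved less: 8 were lower with vehicle (median -0.10, Thy1 called), with sums of 116 to 145, 105 to 128 and 128 to 140. For salidroside against vehicle 11 of 11 were higher, with a median of 0.21. All 11 were well above background on every array.

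Markers of other regions varied by array, and the cerebellar markers also by group. Cerebellar neuron markers, 7 of 8 measured, had sums of 2.52 to 2.76 in sham, 3.47 to 40.0 with vehicle and 2.49 to 3.06 with salidroside. All 7 read higher with vehicle than in sham (median 1.67), and 5 did so without overlap, or 71.4% against 18.8% of all features. For salidroside against vehicle their median was -1.67, with 5 lower and 2 higher. Their array medians were 0.65, 4.04 and 0.59 above the sham mean with vehicle, and -0.096, 0.68 and 0.79 with salidroside. Choroid plexus markers, 6 of 8 measured, had sums of 0.602 to 0.876, 1.16 to 91.1 and 0.537 to 86.5. Striatal spiny neuron markers, with 10 of 10 measured, had sums of 11.2 to 46.3, 8.49 to 13.5 and 9.27 to 14.6. The cerebellar maximum came from vehicle replicate 2 and the striatal maximum from sham replicate 1, and the choroid plexus maxima came from the arrays with the highest Ttr. Ttr is itself in the choroid plexus list and enters that sum, so this last match is no separate evidence.

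Of the remaining lists, microglia and macrophage markers stood out, with 9 of 10 higher with vehicle (median 1.03, Cd163 and Cd14 called) and sums of 7.47 to 10.8 in sham, 11.2 to 21.0 with vehicle and 8.85 to 17.3 with salidroside. Astrocyte markers (8 of 8) had sums of 128 to 167, 164 to 215 and 143 to 186, and oligodendrocyte markers (8 of 8) 77.8 to 170.1, 102 to 135 and 96.0 to 150.9. Thalamic markers (5 of 8) lay at 0.848 to 0.902, 1.18 to 1.37 and 0.686 to 0.960. Brainstem and spinal inhibitory markers (3 of 6) lay at 0.348 to 0.487, 0.738 to 0.782 and 0.300 to 0.528, with Slc6a5 called higher with vehicle than in sham and lower with salidroside than with vehicle.

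**Figure D5:**
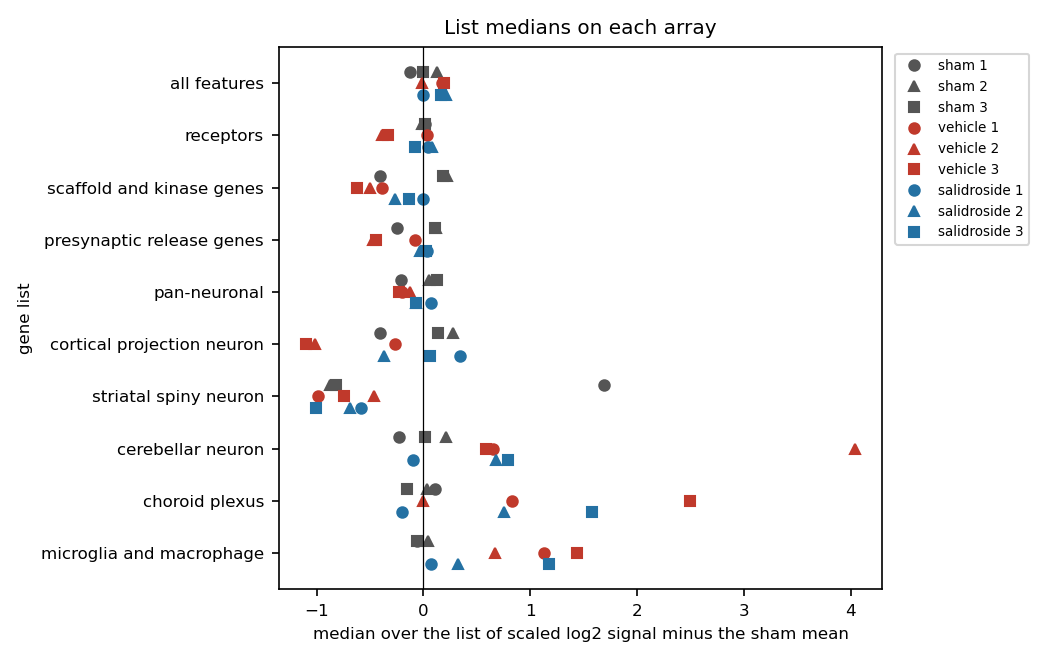
Median over each gene list (rows) of the scaled log2 signal minus the sham mean, for each of the 9 arrays (colour for group, shape for replicate). The 3 member classes lie between -0.62 and 0.22, while cerebellar markers reach 4.04 on vehicle replicate 2 and choroid plexus markers 2.5 on vehicle replicate 3.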

How the data were processed

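Scanner files of 9 arrays were used. Per the file headers, the authors made them with Agilent Feature Extraction 11.0.1.1 on an array design built on rn4, and the processed signal is a fluorescence intensity, background-subtracted and detrended but not normalized between arrays. The authors' deposited value table holds log2 values, with column medians from 8.69 to 8.71 and a shared maximum of 17.9. Its normalization and scale factor are not given in the sources used here, and it served as an alternative.

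Spots marked as outliers and control spots were left out, and log2 signals minus each array's 75th percentile were averaged per probe. A probe was tested where all arrays of 1 or more groups had it well above background (25576 of 30367), and the brightest probe stood for a gene. Probes were named through transcript accessions with a RefSeq table of GRCr8, used for names only, which named 18005. Analysis ran in R 4.3.3 with limma 3.58.1 as 1 fit of 3 groups (6 residual degrees of freedom), tested on simulated data, with calls at a Benjamini-Hochberg adjusted p under 0.05 over 22783 features. The number of arrays limits the precision. For normexp (offset 50), the median spot signal replaced the planned mean signal.

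The members, gene lists and naming rule were chosen with earlier results of these data known. Genes with values per array are those called, the 3 with the smallest p for vehicle against sham and the 2 for salidroside against vehicle in each of 6 role groups, and the paired relatives. Of other pathway genes, the rule takes the 2 with the smallest p per list. Replicate numbers were not used to pair the arrays in the main fit. The correlations of same-numbered arrays' deviations ran from -0.19 to 0.25, and not all passed 0.1, which cannot show that the arrays were unpaired. Alternatives covered background correction, scaling, filtering, probe choice, slide and replicate blocks, array weights and leaving out each array.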

Additional observations from a re-analysis of the deposited data

How the results depend on the processing

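The members' median relative to all features kept its direction in every alternative run, negative in both comparisons with sham and positive for salidroside against vehicle. Against -0.42 for vehicle relative to sham and 0.28 for salidroside relative to vehicle, normexp background correction gave -0.26 and 0.041, and it also moved the median of all features, to 0.54 for salidroside against vehicle, so how far the members exceed other genes in that comparison depends on the background correction. The 1 member called for vehicle against sham became 0 under normexp, with no filter on dim probes, with the slide as a random block, with the replicate block, with only the 6 arrays compared, and, in an alternative chosen after seeing the data, with the slide as a random block and the dim sham replicate 3 left out. It became 6 with array weights (Cplx2, Dlg4, Dlgap1, Nrgn, Shank3 and Stx1a), a setting that called 1263 features lower and 1482 higher in all, and 0 to 2 when each array was left out. Array weights also gave 3 called members for salidroside against sham (Cplx2, Grm5 and Shank1), against 0, while the calls over all features went from 267 to 2287, 760 of them lower. Grm5 for salidroside against sham was 0.33 under normexp, against -0.52. The cause of these moves was not tested. Over all features, the 592 calls for vehicle against sham became 297 with the replicate block and 2745 with array weights, and without 1 array they ran from 107 (sham replicate 3) to 1020 (salidroside replicate 1). The share of probes well above background, lowest on sham replicate 3, limits Gria1 and Shank2.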
